A study of Homo sapiens with 17 samples.

Results

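IGF2BP1 encodes an RNA-binding protein, and its transcript was among the most strongly lowered when either MED25 or ETV4 was depleted in PC3 cells. PC3 is an established human prostate cancer cell line derived from a bone metastasis. The gene was chosen by its log2 ratios in these same comparisons, as 1 of the 10 genes listed for both hairpins of both targets, out of 1400 genes listed for at least 1 hairpin. Its decrease and its presence in all 4 tables are therefore descriptions and carry no test. IGF2BP1 (ENSG00000159217) lies on the plus strand of chromosome 17.

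Early-passage PC3 cells were infected with a virus that carried a short hairpin RNA (shRNA) and were collected on day 7. The lentiviral groups were MED25 shRNA A (3 libraries), MED25 shRNA B (3) and a luciferase shRNA control (3). The retroviral groups were ETV4 shRNA A (3 libraries), ETV4 shRNA B (3) and a retrovirally driven control shRNA (2). The shRNAs are called hairpins A and B of their target below. The series design text instead describes the control as an empty vector, and no label says whether libraries of a group came from separate infections. The authors' deposited tables give 1 log2 ratio and 1 adjusted p per gene for each hairpin, with no value per library, so neither the depth nor the spread between replicates is known here and no level of IGF2BP1 in the control cells can be given. The identity of the cells could not be checked against marker genes for the same reason. Both hairpins of a target were compared with the same control libraries, so their ratios are not independent of each other. In RNA from whole cultures, fewer cells that express IGF2BP1 and less of its RNA per cell cannot be told apart.

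IGF2BP1 (also known as IMP1, CRD-BP or ZBP1) belongs to a family of 3 insulin-like growth factor 2 mRNA-binding proteins. These proteins bind mRNAs through RNA recognition motifs and KH domains, and affect the stability, transport and translation of the bound mRNAs. IGF2BP1 is abundant in embryonic tissue, scarce in most adult tissue and present again in many tumours, and it is known for stabilising the mRNA of the transcription factor MYC and for carrying beta-actin mRNA in the cytoplasm. MED25 is a subunit of Mediator, the complex that links transcription factors to RNA polymerase II. ETV4 is an ETS-family transcription factor of the PEA3 group, whose members bind MED25 directly.

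Reads of a family member can be assigned to another where the transcripts share long identical or nearly identical stretches. The exactly identical stretches of the IGF2BP transcripts are short. For each gene, the protein-coding transcript with the longest coding sequence in GENCODE release 29 was used, and the longest transcript where these tied. The IGF2BP1 transcript chosen has 8274 bases in 15 exons. Its coding sequence takes 1731 bases, and the part after the coding sequence takes 6209 bases, or 75.0% of the transcript. In the IGF2BP2 and IGF2BP3 transcripts chosen in the same way, that last part takes 45.5% and 50.7%. The longest identical stretch between the IGF2BP1 and IGF2BP2 transcripts has 22 bases, and that between IGF2BP1 and IGF2BP3 has 21 bases. Both stretches lie near the start of the coding sequence, in the part that encodes the first RNA recognition motif. They are shown here in capitals with 15 flanking bases on each side, because reads from identical sequence could be assigned to either gene. Nearly identical stretches were not searched for, so assignment of reads between these genes was not tested. Bases are counted from 1 at the start of each coding sequence, and the windows cover bases 94 to 145 of IGF2BP1 and 97 to 148 of IGF2BP2 in the first pair, and bases 106 to 156 of IGF2BP1 and IGF2BP3 in the second pair.
IGF2BP1, against IGF2BP2: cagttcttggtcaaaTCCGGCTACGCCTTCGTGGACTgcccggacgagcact
IGF2BP2: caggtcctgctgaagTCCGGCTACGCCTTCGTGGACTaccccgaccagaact
IGF2BP1, against IGF2BP3: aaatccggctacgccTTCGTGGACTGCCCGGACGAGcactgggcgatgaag
IGF2BP3: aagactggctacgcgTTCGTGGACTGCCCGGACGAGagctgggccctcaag

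The chosen IGF2BP1 transcript is 1 of 6 annotated for the gene, and the others were not searched. Of all 8225 stretches of 50 bases in it, 0 occurred in a GENCODE transcript of another gene on either strand. Of the 8239 stretches of 36 bases, 2 did, both in the antisense gene AC091133.2 and none in IGF2BP2 or IGF2BP3. No source used here gives the length of the reads. Antisense overlap was instead measured over the 9109 exon bases of all IGF2BP1 transcripts together, which include bases outside the searched transcript. On the opposite strand, exons of AC091133.2 and AC091133.3 covered 0.406% and 0.834% of these exon bases. Neither antisense gene was listed in any table. Only exact matches were counted, and copies outside annotated transcripts were not searched.

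IGF2BP1 is given as the log2 of its knockdown level over its control level, so that −1 is a 2-fold decrease. With MED25 hairpin A, IGF2BP1 was at −2.77 in the authors' deposited table, or 14.6% of control. With MED25 hairpin B, the authors' deposited table had it at −1.88, or 27.3% of control. For the ETV4 hairpins, the authors' deposited tables gave −2.04 with hairpin A, or 24.4% of control, and −2.48 with hairpin B, or 18.0% of control. The remaining transcript thus ranged from 14.6% to 27.3% of control, a decrease of between 3.67-fold and 6.84-fold. The mean of the 4 log2 ratios was −2.29 with an SD of 0.41 over the 4 comparisons, which is a spread between hairpins and targets and not between replicates.

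Few genes were lowered further than IGF2BP1 in any table. Ranked by decrease in the authors' deposited tables, it was number 2 of 786 genes with MED25 hairpin A, number 4 of 374 with MED25 hairpin B, number 7 of 495 with ETV4 hairpin A and number 2 of 98 with ETV4 hairpin B. The medians of these tables lay between −0.79 and −0.77, and every listed gene was lowered by at least 1.5-fold. The weakest listed ratio was −0.59 in each of the authors' deposited tables, far from IGF2BP1, and genes with smaller decreases are not in them. A decrease of 2-fold or more was reached by 24.0% of the listed genes with MED25 hairpin A, 20.1% with MED25 hairpin B, 23.2% with ETV4 hairpin A and 20.4% with ETV4 hairpin B. IGF2BP1 was the only gene among the 10 lowest of every table, and the only one lowered at least 3-fold in all 4. ANK2 and AC002456.2 were the other genes lowered at least 2-fold in all 4.

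**Figure D1:**
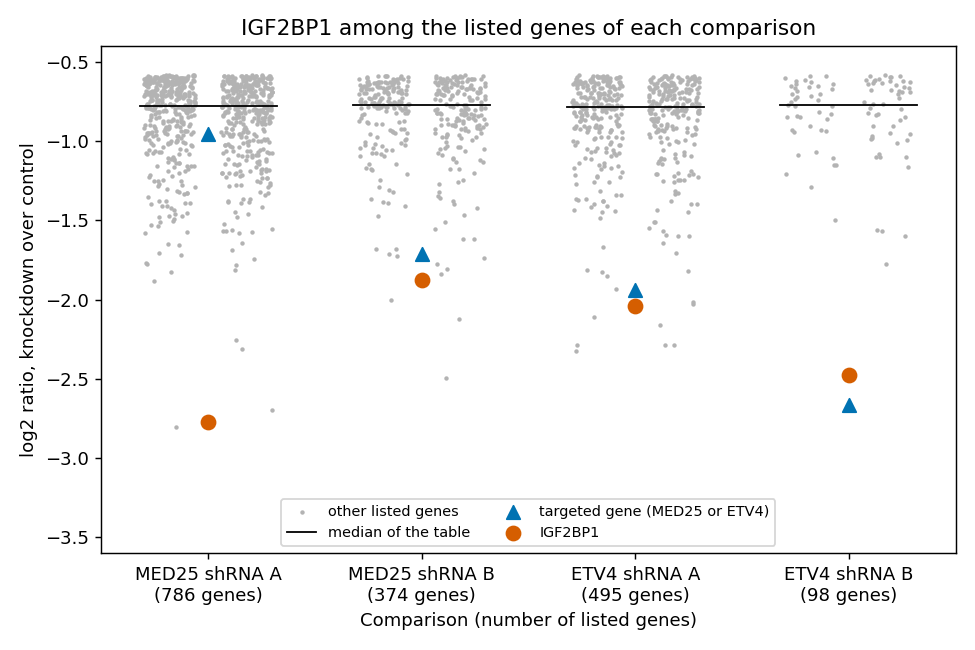
Log2 ratio of knockdown over control (vertical axis) for every gene in the authors' deposited table of each comparison (horizontal axis, points spread sideways), with IGF2BP1 as an orange circle, the targeted gene as a blue triangle and the median of the table as a line. IGF2BP1 lies between −2.77 and −1.88, far below the medians of −0.79 to −0.77, and below the targeted gene in 3 of the 4 comparisons.

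The decrease of IGF2BP1 was set beside that of the targeted transcript. In the authors' deposited table for MED25 hairpin A, MED25 was at −0.96, or 51.6% of control, so the gap, IGF2BP1 minus target, was −1.82. With MED25 hairpin B, MED25 was at −1.71 in the authors' deposited table, or 30.5% of control, and the gap was −0.16. ETV4 was at −1.94 with ETV4 hairpin A in the authors' deposited table, with a gap of −0.10, and at −2.67 with ETV4 hairpin B, where IGF2BP1 was 0.19 above the target. Between the MED25 hairpins, IGF2BP1 was lower with the one that left more MED25 transcript. Between the ETV4 hairpins it was lower with the one that left less ETV4 transcript. The direction of the ratios was set partly from the sign of the targeted genes, so their decrease does not check it.

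The hairpins of a target differed in how far IGF2BP1 was lowered. The letters A and B name hairpins within a target only, so the direction of the difference cannot be compared between targets. With MED25, the difference of the hairpin A ratio from the hairpin B ratio was −0.90 for IGF2BP1, against a median of −0.05 over 153 genes in both authors' deposited tables. Of these genes, 4 differed as far in that direction, namely the acyltransferase gene AWAT2, the neuropeptide galanin (GAL), the histone gene HIST1H4C and IGF2BP1, and 1 more differed as far in the other direction. With ETV4 the difference was 0.44 for IGF2BP1, so that hairpin B gave the lower value, against a median of −0.22 over 57 shared genes of the authors' deposited tables. In that direction 3 genes differed as far, ETV4 itself at 0.73, the secreted endothelial product ESM1 at 0.69 and IGF2BP1. In the other direction 17 genes did, so the size of the ETV4 difference of IGF2BP1 was reached by 20 of the 57 genes. Whether these differences exceed the spread between libraries was not tested, as the tables hold no library values. The genes AWAT2, GAL, HIST1H4C and ESM1 are named here because of these values.

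In all, 11 different genes were lowered further than IGF2BP1 in at least 1 table, and 0 of them in more than 1. With MED25 hairpin A the authors' deposited table had AWAT2 alone below it, at −2.80. With MED25 hairpin B the authors' deposited table had the BMP antagonist noggin (NOG) at −2.50, the small heat shock protein CRYAB at −2.12 and the neuronal immediate early gene ARC at −2.002. Other comparisons listed these genes with smaller decreases or not at all, except CRYAB at −2.25 and ARC at −2.70 with hairpin A of MED25. AWAT2 was at −0.92 with MED25 hairpin B and −0.64 with ETV4 hairpin A in the authors' deposited tables, and NOG was at −0.79 and −0.61 with the ETV4 hairpins. ARC and CRYAB were listed in neither ETV4 table.

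With ETV4 hairpin A, the authors' deposited table placed 6 genes below IGF2BP1, between −2.32 and −2.11. They were RP11-59D5__B.2, the potassium channel gene KCNK15, the Fc receptor gene FCGR2A, the keratins KRT75 and KRT20, and the glutathione-degrading enzyme CHAC1. Of these, only KCNK15 was listed with both MED25 hairpins. With ETV4 hairpin B, only ETV4 itself was lower. The next genes after IGF2BP1 in that authors' deposited table were RP11-550P17.5 at −1.78 and the prokineticin receptor PROKR1 at −1.60, so IGF2BP1 and ETV4 stood apart from the rest of the table by 0.70 log2 units or more.

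In the other tables the gene just after IGF2BP1 in rank lay nearer to it. ARC at −2.70 and the antisense gene AC002456.2 at −2.31 followed IGF2BP1 with MED25 hairpin A in the authors' deposited table. The next genes in the authors' deposited table for MED25 hairpin B were the ankyrin gene ANK2 at −1.84 and the HSP70 gene HSPA6 at −1.81. The phospholipase gene PLD1 at −2.03 and PROKR1 at −2.02 followed with ETV4 hairpin A in the authors' deposited table. Without an error per gene, the order of these neighbours cannot be tested.

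The second deposited value is headed as an adjusted p and exceeded 20 for every gene, so it is not a probability. No source used here states its scale, and it is treated below as a score that is larger where the evidence is stronger. IGF2BP1 stood less high by this score than by its decrease. Its score was 215 with MED25 hairpin A, 148 with MED25 hairpin B, 178 with ETV4 hairpin A and 155 with ETV4 hairpin B in the authors' deposited tables. Ranked by score, IGF2BP1 was number 49 of 786, number 61 of 374, number 65 of 495 and number 20 of 98. Within the 10 lowest genes of each table, its score was number 5, number 9, number 10 and number 4. Scores of IGF2BP1 were nevertheless above the table medians, which lay between 63.4 and 67.6.

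Syndecan-1 (SDC1), a cell-surface proteoglycan listed in all 4 tables, had larger scores and smaller decreases. In the authors' deposited tables SDC1 was at −1.88, −1.73, −0.84 and −0.84, in the order MED25 hairpin A, MED25 hairpin B, ETV4 hairpin A and ETV4 hairpin B, and its scores were 950, 808, 701 and 692. The score of IGF2BP1 was thus lower than that of SDC1 in every table although its decrease was larger. SDC1 was an extreme case, at number 3, 2, 5 and 3 by score among all listed genes, in the same order. Among the 10 genes listed in all 4 tables, IGF2BP1 was number 4, 7, 6 and 3 by score.

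**Figure D2:**
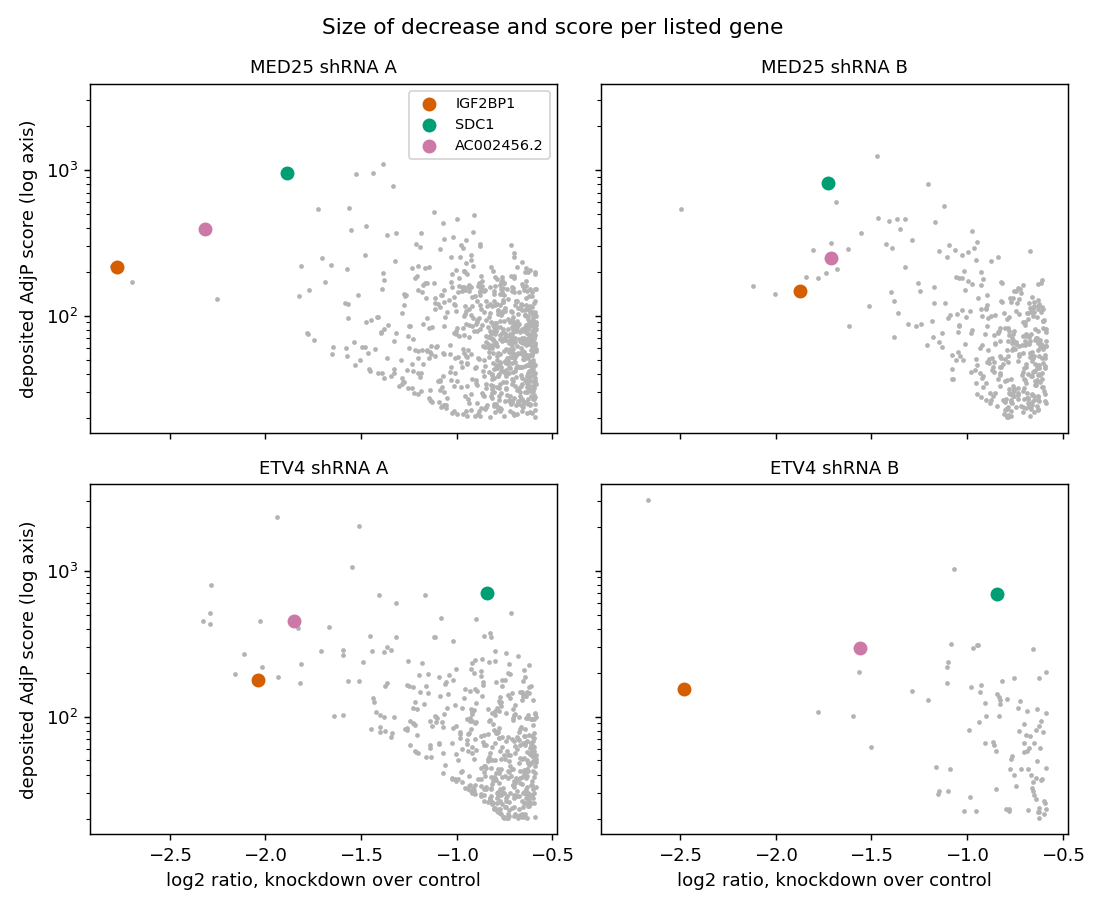
Deposited score headed as an adjusted p (vertical axis, log scale, its own scale not stated) against the log2 ratio of knockdown over control (horizontal axis) for every listed gene, 1 panel per comparison, with IGF2BP1, SDC1 and AC002456.2 in colour. IGF2BP1 sits at the left of each panel with scores of 148 to 215, below SDC1 at 692 to 950.

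Among the 10 genes listed in all 4 tables, IGF2BP1 had the lowest mean log2 ratio. The next means were −1.86 for AC002456.2, −1.64 for KCNK15 and −1.61 for ANK2, followed by −1.37 for NOG, −1.32 for SDC1, −1.16 for SOCS2, −1.09 for the Notch target HEY1, −1.08 for the small GTPase gene RASL11A and −0.81 for the kinase gene CDK14. IGF2BP1 was the lowest of the 10 with MED25 hairpin A and with ETV4 hairpin B. It came after NOG with MED25 hairpin B and after KCNK15 with ETV4 hairpin A. Its means for the 2 targets were −2.32 over the MED25 hairpins and −2.26 over the ETV4 hairpins. KCNK15 at −1.71 against −1.58 and CDK14 at −0.87 against −0.75 also had means near each other. Near means can hide differences between hairpins, as for IGF2BP1 above. KCNK15 was at −2.29 with ETV4 hairpin A and −0.86 with ETV4 hairpin B in the authors' deposited tables. The means were farther apart for NOG at −2.04 against −0.70, SDC1 at −1.81 against −0.84 and the cytokine-signalling inhibitor SOCS2 at −0.91 against −1.40. These are differences of the values in the authors' deposited tables, with no test.

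**Figure D3:**
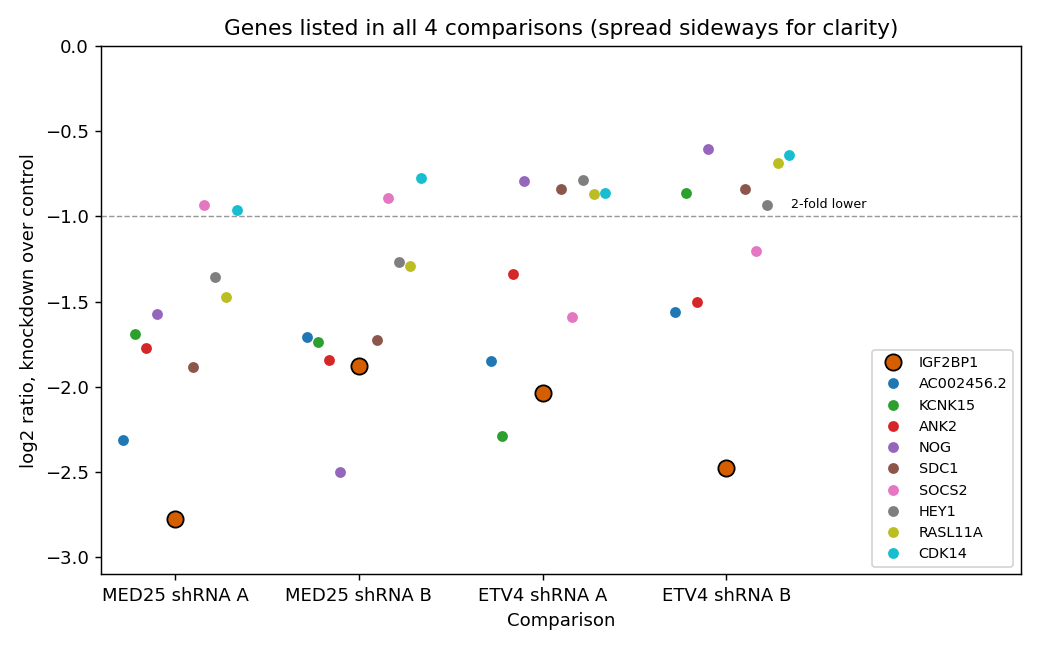
Log2 ratio of knockdown over control (vertical axis) in the 4 comparisons (horizontal axis) for the 10 genes in all of the authors' deposited tables, spread sideways within a comparison, with the dashed line at a 2-fold decrease. IGF2BP1 is the lowest point with MED25 hairpin A (−2.77) and ETV4 hairpin B (−2.48), and comes after NOG (−2.50) and KCNK15 (−2.29) in the other 2 comparisons.

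Likeness to IGF2BP1 was measured as the mean absolute difference of the log2 ratios over the 4 comparisons. The nearest gene was AC002456.2 at 0.43, followed by ANK2 at 0.68, KCNK15 at 0.77, SDC1 at 0.97 and SOCS2 at 1.13. IGF2BP1 was lower in all 4 comparisons than each of these genes except KCNK15. For them the distance therefore equals the difference of the mean log2 ratios. It restates the values that chose IGF2BP1 and does not measure a shared pattern over the comparisons. In the authors' deposited tables AC002456.2 was at −2.31, −1.71, −1.85 and −1.56, in the same order of comparisons as above, so it was above IGF2BP1 in all 4. It is an antisense gene that overlaps CDK14 on chromosome 7. Without strand in the counting, which no source used here states, reads from bases that both genes share cannot be told apart. The overlap of their exons was not measured. For ANK2, a membrane scaffold gene, the authors' deposited tables gave −1.77, −1.84, −1.34 and −1.50. When genes in at least 3 tables were included, ESM1 came number 3 at 0.72 over 3 comparisons. AWAT2 followed KCNK15 at 0.79 over 3 comparisons. These distances leave out the comparison that did not list the gene, MED25 hairpin A for ESM1 and ETV4 hairpin B for AWAT2. IGF2BP1 was at −2.77 and −2.48 there in the authors' deposited tables, so these distances are not comparable with those over 4 comparisons.

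For pairs of a MED25 with an ETV4 hairpin, which share no control libraries, IGF2BP1 led or nearly led the genes common to both tables. By the mean of both ratios it was number 1 of 112 shared genes for both A hairpins, at −2.41, ahead of AC002456.2 at −2.08. It was number 1 of 25 for MED25 hairpin A with ETV4 hairpin B, at −2.63, and number 1 of 27 for both B hairpins, at −2.18, ahead of ESM1 at −1.67. For MED25 hairpin B with ETV4 hairpin A it was number 2 of 47, at −1.96, after KCNK15 at −2.01. All of these are from the authors' deposited tables and restate the values that chose the gene.

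Of the 2 other members of the IGF2BP family, 1 was listed. IGF2BP3, also an oncofetal RNA-binding protein, was at −0.73 with ETV4 hairpin B in the authors' deposited table, number 56 of 98, and in no other table. In that comparison IGF2BP1 was at −2.48 and IGF2BP3 retained 3.36 times as large a share of its control level. IGF2BP2 was in no table. A gene missing from a table may have been too low to count, unchanged or higher. It may also have been lowered by less than 1.5-fold, or lowered with too small a score. These cannot be told apart.

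Gene lists around IGF2BP1 are described by counts, with no test, beside the share of 19951 annotated protein-coding genes listed in the same table. That share was 3.44% with MED25 hairpin A, 1.61% with MED25 hairpin B, 2.17% with ETV4 hairpin A and 0.456% with ETV4 hairpin B, and 6.14% were listed in at least 1 of the 4 tables. These background genes include genes that PC3 cells may not express, so the shares are not matched for expression. Over 7 lists with 110 different members besides IGF2BP1, 8 members were listed with each MED25 hairpin and 1 with each ETV4 hairpin.

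Reported target mRNAs of IGF2BP1 were represented by 2 of 20 in at least 1 table, beside the background of 6.14%. With MED25 hairpin A 10% of them were listed and with MED25 hairpin B 5%, beside backgrounds of 3.44% and 1.61%. MYC was at −0.70 with MED25 hairpin A and −0.87 with MED25 hairpin B in the authors' deposited tables. The cell cycle factor E2F1 was at −0.61 with MED25 hairpin A in the authors' deposited table, near the weakest listed decrease of −0.59. With the ETV4 hairpins 0 of the 20 were listed, which is near the background shares of 2.17% and 0.456%. Known targets such as ACTB, CD44 and BTRC were in no table.

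The oncofetal and let-7 linked list holds genes that, like IGF2BP1, are active in embryonic cells or are linked to the let-7 microRNA family, which represses IGF2BP1. With MED25 hairpin B, 4 of its 17 members (23.5%) were listed, and 3 of 16 (18.75%) without AGO2, beside a background of 1.61%. The decrease of AGO2 was known when the list was drawn up. Like the other lists, it was chosen with earlier results of these data known, so neither count is a test. In the authors' deposited table for that hairpin the chromatin proteins HMGA1 and HMGA2 were at −1.17 and −0.69, AGO2 (listed as EIF2C2) at −1.12 and the zinc finger factor PLAGL1 at −0.86. With MED25 hairpin A, SALL4 alone was listed, at −1.25 in the authors' deposited table. That is 5.9% of the list, beside a background of 3.44%. LIN28A and LIN28B, which block let-7 maturation, were in no table. None of the members was listed with an ETV4 hairpin, which is near the background shares of 2.17% and 0.456%.

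Of the genes of insulin-like growth factor signalling, 3 of 14 were listed with MED25 hairpin A and 1 of 14 with MED25 hairpin B. These are 21.4% and 7.1%, beside backgrounds of 3.44% and 1.61%. In the authors' deposited tables the adaptor IRS2 was at −1.38 and −0.92 with the 2 MED25 hairpins. IRS1 was at −0.95 and the binding protein IGFBP4 at −1.52 with MED25 hairpin A in the authors' deposited table. With the ETV4 hairpins 0 of the 14 were listed, which is near the background shares of 2.17% and 0.456%. IGF2, whose mRNA gave the family its name, was in no table.

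Other proteins that act on mRNAs were counted in the same way. Of the 18 writers, erasers and readers of N6-methyladenosine, the RNA modification that IGF2BP proteins can recognise, 0 were in any table, beside the background of 6.14%. Of 25 mRNA-binding partners, 1 was listed with MED25 hairpin B and 1 with ETV4 hairpin B, or 4.0% in each, beside backgrounds of 1.61% and 0.456%. YBX1, a cold shock domain protein, was at −0.66 with MED25 hairpin B in the authors' deposited table, and IGF2BP3 is the member listed with ETV4 hairpin B.

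The protein-coding genes around IGF2BP1 on chromosome 17 were examined for a decrease shared along the chromosome. Of the 10 on each side, 3 of 20 were listed in at least 1 table, beside the background of 6.14%. NGFR, the p75 neurotrophin receptor and neighbour number 7 on the side after IGF2BP1, was at −1.64 with MED25 hairpin A and −1.62 with MED25 hairpin B in the authors' deposited tables. On the other side, the homeobox gene HOXB13, neighbour number 7, was at −0.71 with ETV4 hairpin A in the authors' deposited table. PRAC1 (listed as PRAC), neighbour number 9 on that side, was at −0.85 with MED25 hairpin A in the authors' deposited table. The 6 nearest genes on each side, from GIP to TTLL6 and from B4GALNT2 to PHB, were in no table. No neighbour was listed for both targets.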

How the data were processed

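RNA sequencing libraries of PC3 cells were compared by the submitters, and only their comparisons were used. The submitters' processing notes name hg19 and the aligner Novoalign 3.08.02. No source used here names the counting tool, annotation, scaling or test. The authors deposited, per the file headers, a log2 ratio for each listed gene, together with a value headed as an adjusted p. That second deposited value exceeded 20 throughout and was used only as a score, for ranks and filters. MED25 ratios were turned round: the library number shared by both MED25 tables was read as the control and stood first. Under this reading all listed genes, the targeted ones included, had less transcript in the knockdown. In the processing, ratios were turned round where all of a comparison were positive, so this shared decrease does not check the direction.

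IGF2BP1 and the gene lists were chosen with earlier results of these data known. Genes named are IGF2BP1, its family, the targets, all genes above it and the 2 below it in rank, genes in all 4 tables and up to 4 listed members per list, with examples of members not listed, unless marked otherwise. List members were matched by Ensembl identifier. Of 1400 listed genes, 1350 matched GENCODE release 29, which is on a later build than hg19, so no coordinates are given. No test was run, since the tables hold no library values. The promoter and protein sequences of IGF2BP1 are not analysed here. Python 3.11.15, pandas 2.3.3, numpy 2.4.6 and matplotlib 3.10.9 were used, and ranks and likeness were tested on simulated data.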

Additional observations from a re-analysis of the deposited data

How the results depend on the processing

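The rank of IGF2BP1 by decrease was the same or changed by 1 place when only genes with a score of at least 50 or only protein-coding genes were ranked. Its position among the 10 genes in all 4 tables was number 1 by mean rank, by its least decrease and without any one table. AC002456.2 was also nearest by root mean square difference and by difference of rank percentiles. It stayed nearest when genes in at least 3 tables were included. Ranked by score among genes lowered at least 2-fold, IGF2BP1 was number 30 with MED25 hairpin A, 39 with MED25 hairpin B, 41 with ETV4 hairpin A and 9 with ETV4 hairpin B, because fewer genes were ranked. Of 40 alternatives, 30 changed no value by more than 1.5 times and the other 10 were these ranks and counts of list members under stricter minimums. Leaving AGO2 out of the oncofetal list, chosen after seeing the data, took its listed members from 5 to 4. No paired analysis was possible because the deposited tables hold no value per library, and leaving out a library was not possible for the same reason. Depth, and with it the error of each ratio, is unknown.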
